A study of Mus musculus with 4 samples.

Results

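The Fc gamma and epsilon receptor genes measured here are Fcgr1, Fcgr3 and Fcgr4, which encode activating receptors for immunoglobulin G (IgG), Fcer1g, which encodes their signalling chain, Fcgr2b, which encodes the inhibitory receptor, and Fcgrt, which encodes the heavy chain of the neonatal Fc receptor FcRn. They were chosen by gene symbol, 6 of the 32285 genes counted, and followed by cell class in single cells of mouse lung. All 6 were measured. The highest median level was in interstitial macrophage-like cells for Fcgr1, Fcgr3, Fcgr2b and Fcgrt, and in monocyte-like cells for Fcgr4 and Fcer1g.

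Fc gamma receptors bind the constant part of IgG and let a leukocyte respond to antibody-coated targets. FcγRI, FcγRIII and FcγRIV, encoded by Fcgr1, Fcgr3 and Fcgr4, signal through the immunoreceptor tyrosine-based activation motif (ITAM) of the common gamma chain FcRγ, the product of Fcer1g, which also serves the high-affinity IgE receptor and natural killer cell receptors. FcγRIIB, from Fcgr2b, carries an inhibitory motif (ITIM) and recruits the phosphatase SHIP1, so that the balance of activating and inhibitory receptors sets how a macrophage or neutrophil answers immune complexes. FcRn, a relative of class I histocompatibility molecules, pairs with beta-2 microglobulin and returns IgG from endosomes to the cell surface. LAIR-1, the collagen-binding receptor that the study deleted, is itself an ITIM-bearing inhibitory receptor.

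The lungs came from LAIR1KO mice bearing B16/F10 tumors, LAIR1KO mice without tumor, WT mice bearing B16/F10 tumors and WT mice without tumor, with no other treatment given in the labels. B16/F10 is a melanoma line of C57BL/6 origin that colonises lung. Each group was a single 10x Genomics 3′ library holding 3 replicates marked by hashtag antibodies, so that group and library cannot be told apart, and p-values measure the spread between hashtagged replicates, which were taken as separate animals. The strain, the age and the way LAIR1KO was made are not given in the sources used here. The question these groups allow is how the receptor genes differ with genotype, with tumor and between cell classes.

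After filtering and hashtag assignment 8468 cells remained, 510 to 1050 in each of the 12 replicates, with 2378671 to 6202834 unique molecular identifiers (UMIs, counted molecules) per replicate. Median UMIs per kept cell were 4356 in LAIR1KO tumor, 5438 in LAIR1KO normal, 4971 in WT tumor and 5604 in WT normal. The libraries shared 3 to 7 cell barcodes per pair. In interstitial macrophage-like cells Lair1 had 1 UMI in LAIR1KO tumor and 0 in LAIR1KO normal, against 206 ± 27.1 and 122 ± 14.8 CPM (UMIs of a gene, scaled so that all genes of a replicate and class add up to the same sum) in WT tumor and WT normal (SD, n = 3 each). The 3 WT normal replicates held 0 UMIs of Xist and 98.8 to 151 CPM of the Y-linked Ddx3y, while the other 9 replicates held 1421 to 1754 CPM of Xist. Genotype in normal lung and tumor in WT lung are thus also comparisons of female with male animals, and the part of sex was not tested.

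Cell classes are clusters named from marker lists, so a difference from an annotation made by others may stem from the naming. All markers of the list were highest in their own class for interstitial macrophage-like cells (10 of 10), neutrophil-like cells (10 of 10), B-like cells (7 of 7), T-like cells (9 of 9) and natural killer-like cells (7 of 7). For alveolar macrophage-like cells 9 of 10 were, for dendritic-like cells 9 of 13, and for monocyte-like cells, in which classical and non-classical monocytes were not parted, 7 of 15. Parts of the same cluster as the monocyte-like cells, of 90, 79, 55, 36 and 22 cells before hashtag assignment, stayed unnamed. They scored for non-classical monocyte markers, and 50 to 97.5% of their cells were hashtag doublets. Fcgr4 was among the leading genes of the part with 79 cells. The 6 receptor genes were left out of the genes used for clustering. Levels and ratios by class use only replicates with at least 10 cells of the class. For monocyte-like, alveolar macrophage-like and natural killer-like cells all such replicates came from tumor-bearing lung. Interstitial macrophage-like and neutrophil-like cells had replicates of every group, so the order of classes also sets unlike groups side by side. Because 3′ UMIs count transcript ends, levels are given as CPM and do not scale with transcript length. Fcgr2b and Fcgr3 encode closely similar outer domains, and how shared reads were counted was not tested.

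In mm10 the genes Fcgr2b (chr1:170958617-170976547, minus strand), Fcgr4 (chr1:171018920-171029761, plus strand), Fcgr3 (chr1:171051174-171064935, minus strand) and Fcer1g (chr1:171229572-171234365, minus strand) lie within 275.7 kb of chromosome 1. Fcgr1 is at chr3:96282909-96293969 (minus strand) and Fcgrt at chr7:45092990-45103851 (minus strand). The promoters of the 3 activating receptors and of the inhibitory one are shown because their expression parted between cell classes, as described further on. Each is the RefSeq window of 300 bases in GRCm38.p6, 250 before to 50 after a transcript start, written 5′ to 3′ on the gene's strand. For Fcgr3 and Fcgr2b the RefSeq start used, and the whole window, lie inside the gene span given above. Capitals mark TTCCTC, the reverse complement of GAGGAA, the core bound by the myeloid factor PU.1, and in Fcgr1 also TTCNNNGAA, the pattern bound by STAT factors in interferon-gamma-activated sites.
Fcgr1 (chr3:96293920-96294219, minus strand): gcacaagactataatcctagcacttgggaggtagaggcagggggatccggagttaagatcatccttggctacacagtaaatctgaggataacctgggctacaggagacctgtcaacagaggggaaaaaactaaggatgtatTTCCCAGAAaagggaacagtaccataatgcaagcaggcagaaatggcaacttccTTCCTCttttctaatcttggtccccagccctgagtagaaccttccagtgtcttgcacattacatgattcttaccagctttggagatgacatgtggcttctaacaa
Fcgr3 (chr1:171059354-171059653, minus strand): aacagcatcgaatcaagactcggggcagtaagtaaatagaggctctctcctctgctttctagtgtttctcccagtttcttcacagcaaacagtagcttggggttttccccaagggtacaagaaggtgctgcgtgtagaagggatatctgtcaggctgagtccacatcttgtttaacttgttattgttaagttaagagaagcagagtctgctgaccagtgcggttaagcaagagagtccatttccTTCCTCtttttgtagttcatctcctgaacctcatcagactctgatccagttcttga
Fcgr4 (chr1:171018676-171018975, plus strand): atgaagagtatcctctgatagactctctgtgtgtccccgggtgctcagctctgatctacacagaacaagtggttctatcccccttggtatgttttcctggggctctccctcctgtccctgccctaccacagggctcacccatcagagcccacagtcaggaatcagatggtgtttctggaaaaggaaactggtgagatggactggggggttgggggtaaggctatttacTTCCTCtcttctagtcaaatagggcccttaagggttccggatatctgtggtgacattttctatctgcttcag
Fcgr2b (chr1:170976022-170976321, minus strand): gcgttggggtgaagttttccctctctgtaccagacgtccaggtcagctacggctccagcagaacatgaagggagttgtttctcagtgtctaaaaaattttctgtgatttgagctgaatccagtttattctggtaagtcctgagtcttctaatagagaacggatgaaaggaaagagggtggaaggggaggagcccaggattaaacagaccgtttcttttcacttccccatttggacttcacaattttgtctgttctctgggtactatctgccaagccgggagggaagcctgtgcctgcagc

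Read on both strands, GAGGAA occurred in the windows of Fcgr1, Fcgr3 and Fcgr4, that is in 3 of the 6 genes and in 28.3% of 32851 RefSeq promoter windows. It lay 55 bases before the start in Fcgr1, 6 bases before in the Fcgr3 window shown (15 before a second annotated start) and 22 bases before in Fcgr4. TTCNNNGAA, which reads the same on both strands, occurred in the Fcgr1 window alone among the 6, 109 bases before the start, and in 8.30% of all windows. The windows of Fcgr2b, Fcer1g and Fcgrt held neither run of letters. The 2 motifs did not overlap where both occurred.

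Among activating receptors, Fcgr1, which encodes the high-affinity IgG receptor, had its highest level in interstitial macrophage-like cells, with a median of 89.4 CPM over 12 replicates (45.4 to 112). Monocyte-like cells had 52.7 CPM (13.8 to 86.0, 5 replicates, 15 UMIs) and alveolar macrophage-like cells 29.2 CPM (20.8 to 34.2, 6 replicates). Dendritic-like cells had 10.0 CPM (0 to 27.6, 7 replicates). Each of these neighbours overlapped, but the lowest interstitial macrophage-like replicate stood above the highest alveolar macrophage-like one. In each of the other 8 classes at most 5 Fcgr1 UMIs were counted, the 5 in neutrophil-like cells being spread over 2189 cells.

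Fcgr3, for the low-affinity receptor FcγRIII, was at a similar level in interstitial macrophage-like and neutrophil-like cells. Its median was 314 CPM (239 to 444) in interstitial macrophage-like cells and 308 CPM (173 to 412) in neutrophil-like cells, with 12 replicates each. Monocyte-like cells followed at 194 CPM (116 to 213) and alveolar macrophage-like cells at 149 CPM (92.5 to 216). Neighbours in this order overlapped down to alveolar macrophage-like cells, whose lowest replicate was above every dendritic-like replicate (median 42.8 CPM, 22.0 to 79.9). Natural killer-like cells, the lymphocyte class known to use FcγRIII, had a median of 25.9 CPM in 4 replicates, from only 12 UMIs.

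Fcgr4, for the intermediate-affinity receptor FcγRIV, had another order. Monocyte-like cells had a median of 151 CPM (96.8 to 211) and neutrophil-like cells 147 CPM (119 to 190). Alveolar macrophage-like cells had 80.4 CPM (56.4 to 132) and interstitial macrophage-like cells 19.1 CPM (4.44 to 58.4). Only 1 interstitial macrophage-like replicate, LAIR1KO normal replicate 1, reached into the alveolar range, and all 12 neutrophil-like replicates were above all 12 interstitial ones. The makeup of the activating receptors differed accordingly. Of 3731 activating UMIs in interstitial macrophage-like cells 22.2% were Fcgr1, 73.5% Fcgr3 and 4.26% Fcgr4. Of 1798 in neutrophil-like cells 0.278% were Fcgr1, 66.9% Fcgr3 and 32.9% Fcgr4. Alveolar macrophage-like cells lay between them in Fcgr1 (10.97%) and close to neutrophil-like cells in Fcgr4 (31.4%).

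Fcer1g, the signalling chain, had the highest median of the 6 in the monocyte-like, neutrophil-like, natural killer-like, dendritic-like and both macrophage-like classes. Its median was 2477 CPM (2186 to 2559) in monocyte-like cells, and these replicates lay above every replicate of every other class with at least 10 cells. Smaller replicates of normal lung, with 1 to 8 cells, were left out. They ran from 1910 to 3851 CPM in monocyte-like cells and from 765 to 3462 CPM in natural killer-like cells. Neutrophil-like cells had 1719 CPM (1465 to 2092), natural killer-like cells 1627 CPM (1225 to 1993), alveolar macrophage-like cells 1599 CPM (1519 to 1989) and interstitial macrophage-like cells 1579 CPM (1454 to 1776). These 4 classes overlapped one another, and all lay above dendritic-like cells at 866 CPM (786 to 1176). B-like cells had 128 CPM with a range of 0 to 551, and the remaining classes had medians of at most 19.4 CPM.

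Fcgr2b, the inhibitory receptor, was highest in interstitial macrophage-like cells, with a median of 415 CPM (273 to 514), and overlapped there with dendritic-like cells at 320 CPM (171 to 489). Monocyte-like cells had 160 CPM (118 to 194), alveolar macrophage-like cells 160 CPM (97.0 to 211) and B-like cells, in which Fcgr2b is the one Fc gamma receptor known to act, 152 CPM (121 to 280). All B-like replicates stood above all natural killer-like ones (median 35.8 CPM, 24.5 to 79.7). Neutrophil-like cells held 38 Fcgr2b UMIs in all, a median of 9.96 CPM (0 to 29.3). Of the pair of classes with most Fcgr3, 1 thus had the highest Fcgr2b level and the other a level under every B-like replicate.

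Fcgrt, for FcRn, was found in macrophages and also in stromal classes. Interstitial macrophage-like cells had a median of 482 CPM (351 to 626) and alveolar macrophage-like cells 243 CPM (213 to 283), without overlap between them. Fibroblast-like cells came next at 122 CPM (107 to 146, 12 replicates), below every alveolar macrophage-like replicate, and dendritic-like cells at 72.1 CPM (46.0 to 150). Endothelial-like cells, a cell type in which FcRn recycling of IgG is well known, had 48.0 CPM (26.2 to 60.7). Neutrophil-like cells had 10 Fcgrt UMIs in 2189 cells. The plot of levels by class shows this spread of Fcgrt beside the leukocyte pattern of the other 5 genes.

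**Figure D1:**
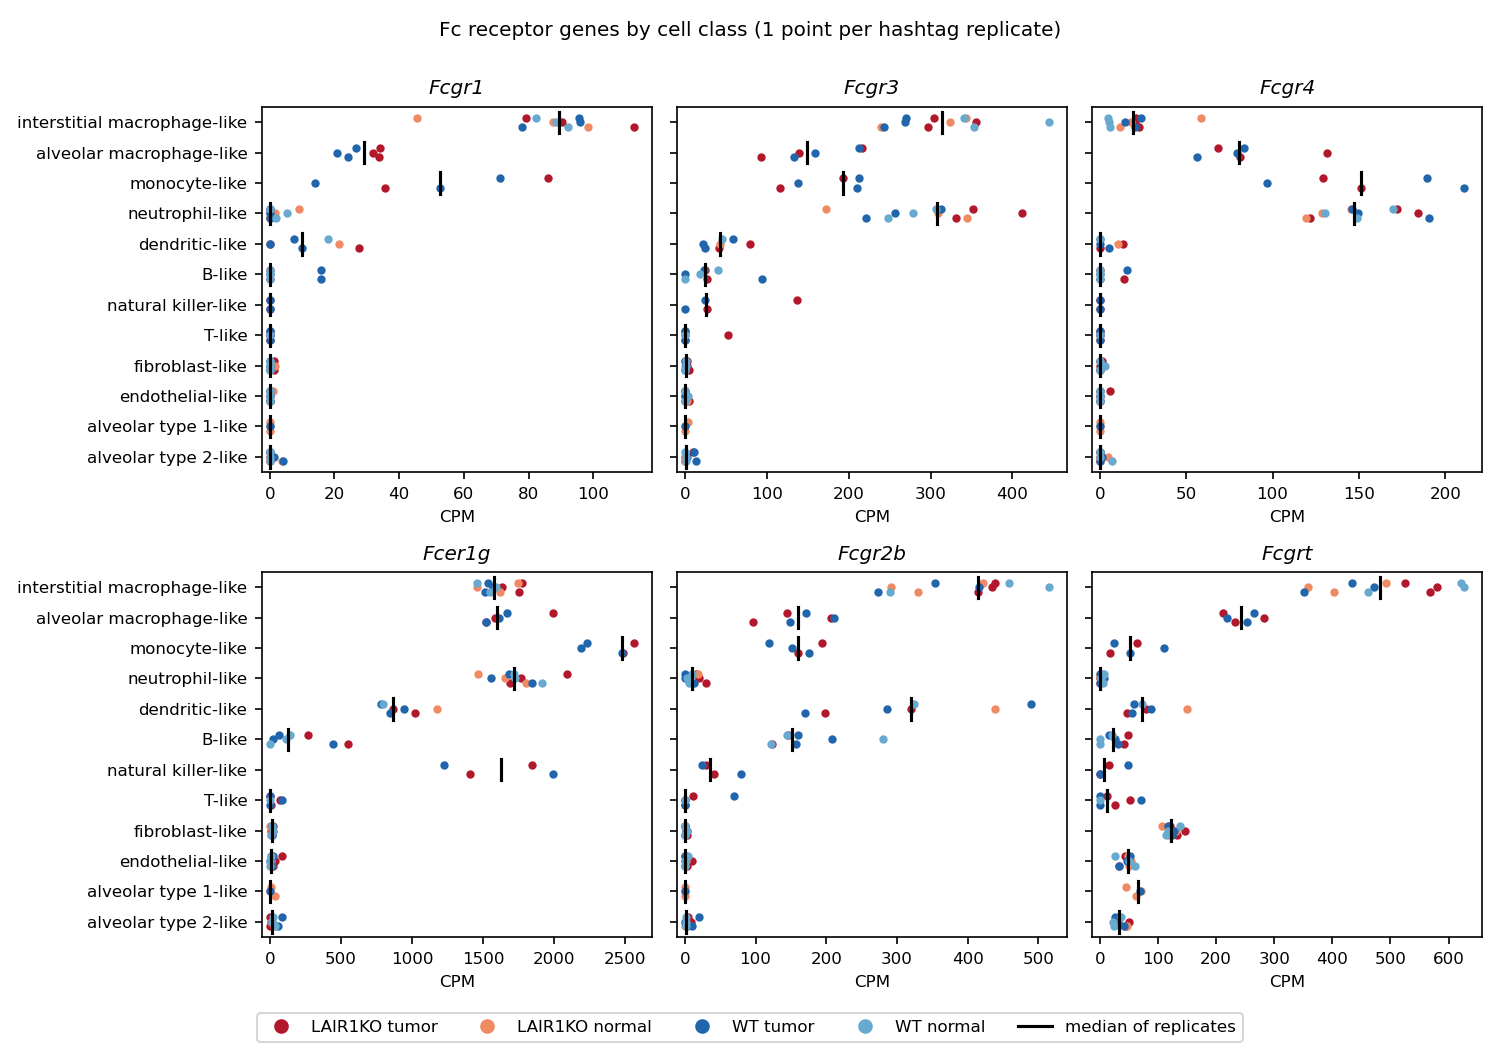
Level of each Fc receptor gene (CPM, horizontal axis, starting at 0 on each panel) in 12 cell classes, with 1 point per hashtag replicate of at least 10 cells, coloured by group, and a black bar at the median. Fcgr1, Fcgr3, Fcgr2b and Fcgrt have their highest median in interstitial macrophage-like cells, whereas Fcgr4 and Fcer1g have it in monocyte-like cells at 151 and 2477 CPM.

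Detection in single cells gave the same picture after each cell was thinned to 2000 UMIs, with shallower cells left out (1477 of 1508 interstitial macrophage-like and 540 of 2189 neutrophil-like cells remained). In interstitial macrophage-like cells 16.6% had a UMI of Fcgr1, 44.4% of Fcgr3, 3.45% of Fcgr4, 94.2% of Fcer1g, 47.5% of Fcgr2b and 54.3% of Fcgrt. Before thinning, at a median of 5368 UMIs, these shares were 37.7%, 73.0%, 8.89%, 98.4%, 72.5% and 78.4%. In neutrophil-like cells the thinned shares were 41.1% for Fcgr3, 25.4% for Fcgr4, 96.3% for Fcer1g and 2.96% for Fcgr2b, and 36.9%, 20.7%, 90.7% and 1.74% before thinning, at a median of 1615 UMIs. T-like cells, which should lack the Fc gamma receptors, had 1.83% for Fcgr3, 2.75% for Fcer1g and 1.83% for Fcgr2b over 109 thinned cells, from a median of 2955 UMIs before thinning. The neutrophil share of Fcgr2b stood close to that background. Fcgrt is not confined to these receptors' classes, so the T-like share of 5.505% is no background for it. In alveolar type 2-like cells the Fcgrt share was 5.27% after thinning and 27.15% before, at a median of 33.3 CPM (22.5 to 49.3, 11 replicates). T-like cells had a median of 11.9 CPM (0 to 70.1, 7 replicates). Fibroblast-like cells had 23.7% for Fcgrt after thinning and 61.3% before.

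Interstitial macrophage-like cells carried activating and inhibitory transcripts in the same cell. After thinning, 28.7% of them had a UMI of an activating receptor together with Fcgr2b, 26.3% had activating receptors alone, 18.8% had Fcgr2b alone and 26.1% had neither. Among neutrophil-like cells 53.7% had activating receptors alone and 1.48% both. Among dendritic-like cells 35.8% had Fcgr2b alone, 6.76% both and 2.70% activating receptors alone. Alveolar macrophage-like cells had 31.6% with activating receptors alone and 8.74% with both. A cell without a UMI may still hold the transcript at this depth.

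The activating to inhibitory ratio, the log2 of summed Fcgr1, Fcgr3 and Fcgr4 UMIs over Fcgr2b UMIs with 0.5 added to each, put the classes in a wide order. It was highest in neutrophil-like cells, with a median of 5.37 over 12 replicates (3.85 to 7.97), which is a 41.3-fold excess of activating over inhibitory UMIs. Monocyte-like cells had 1.04 (0.69 to 1.90, 5 replicates), and alveolar macrophage-like cells had 0.73 (0.30 to 1.13, 6 replicates). In interstitial macrophage-like cells the counts were nearly even, 3731 activating and 3490 Fcgr2b UMIs, with a median of 0.08 (−0.13 to 0.64). Dendritic-like cells had −2.28 (−3.41 to −1.49, 7 replicates), from 55 activating and 270 Fcgr2b UMIs. Every neutrophil-like replicate lay above and every dendritic-like replicate below all replicates of the other 3 classes. B-like and alveolar type 2-like cells reached the minimum of 20 UMIs in only 1 replicate each, at −1.45 and 0.67.

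Within classes the ratio gave no call between groups. In interstitial macrophage-like cells it was −0.11, 0.11 and 0.06 in LAIR1KO tumor, 0.09, 0.56 and 0.08 in LAIR1KO normal, 0.14, −0.13 and 0.32 in WT tumor and −0.10, 0.06 and 0.64 in WT normal. All 4 groups overlapped. Tumor-bearing minus normal within genotype was −0.16 (exact two-sided permutation p = 0.345, adjusted p = 0.75) and LAIR1KO minus WT within tumor status was −0.03 (exact p = 0.83, adjusted p = 0.855), where the smallest p these stratified tests allow is 0.005.

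In neutrophil-like cells the ratio was 4.97, 4.78 and 3.85 in LAIR1KO tumor, 3.87, 6.16 and 5.38 in LAIR1KO normal, 7.79, 7.97 and 4.77 in WT tumor and 5.36, 6.73 and 5.83 in WT normal. LAIR1KO minus WT within tumor status was −1.57 (exact two-sided permutation p = 0.075, adjusted p = 0.75), and the groups overlapped. These values rest on few Fcgr2b UMIs, 8, 4 and 7 in LAIR1KO tumor, 2, 3 and 4 in LAIR1KO normal, 0, 0 and 3 in WT tumor and 3, 1 and 3 in WT normal. In LAIR1KO tumor the 496 activating and 19 Fcgr2b UMIs give a ratio of 26.1, with an exact 95% counting interval of 16.5 to 43.7, against 110 (37.3 to 536) in WT tumor from 330 and 3 UMIs. These intervals cover counting error only. In dendritic-like cells of tumor-bearing lung the ratio was −1.71 and −1.49 in LAIR1KO, against −2.81, −3.41 and −2.02 in WT. These replicates did not overlap, with a difference of 1.15 (exact two-sided permutation p = 0.2, adjusted p = 0.75), on 7 and 15 activating UMIs in LAIR1KO and 9, 2 and 8 in WT. In the alveolar macrophage-like class with tumor it was 1.13, 0.54 and 1.09 in LAIR1KO, against 0.91, 0.30 and 0.51 in WT, and in monocyte-like cells 1.04 and 0.90 in LAIR1KO, against 1.90, 0.69 and 1.39 in WT, with overlap in both classes. Of 15 ratio comparisons in 5 classes, 0 had an unadjusted p under 0.05 by the exact test. An exact permutation test of 3 against 3 replicates, or of 2 against 3 here, cannot go below p = 0.1.

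**Figure D2:**
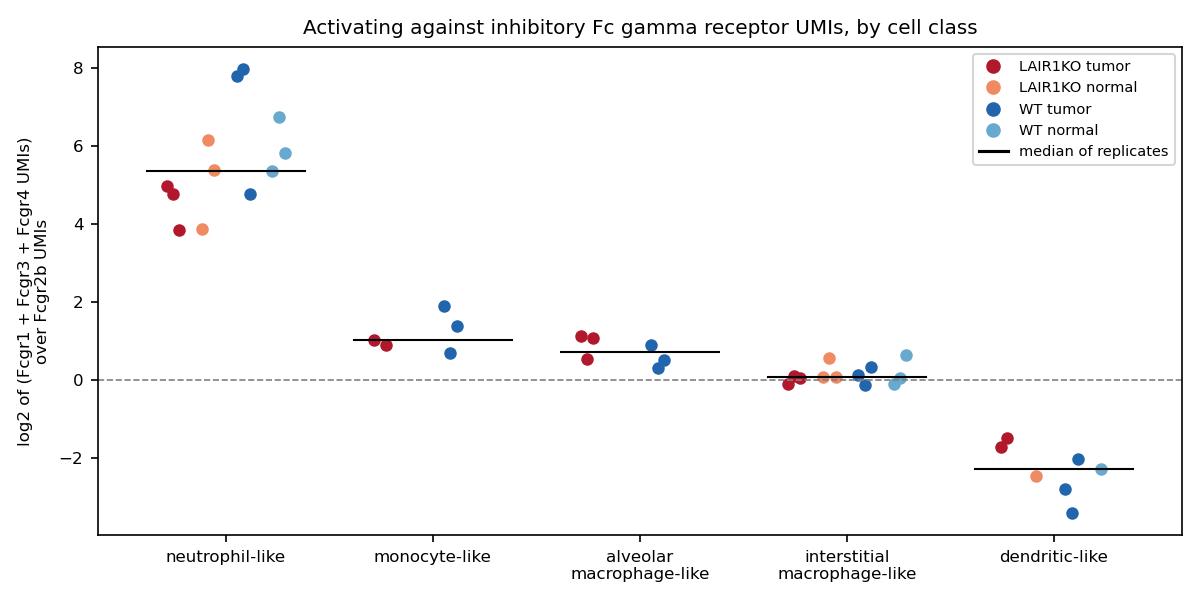
Log2 of activating (Fcgr1, Fcgr3 and Fcgr4) over inhibitory (Fcgr2b) UMIs, each with 0.5 added, in 5 cell classes, with 1 point per replicate coloured by group and a black line at the median; the dashed line marks equal UMIs. Neutrophil-like cells lie between 3.85 and 7.97, interstitial macrophage-like cells around 0 and dendritic-like cells between −3.41 and −1.49.

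Between groups, the receptor genes were tested with all other genes in each class with edgeR's quasi-likelihood test, with Benjamini-Hochberg adjustment over all genes tested in the class and a threshold of 0.05. The 6 genes gave 87 tests over 10 classes and 5 contrasts, of which 18 had an unadjusted p under 0.05 and 2 passed after adjustment. Of the 18, 13 fell in interstitial macrophage-like cells, 4 in alveolar type 2-like cells and 1 in neutrophil-like cells. The contrasts share groups, among them the male WT normal group, so these tests are not independent. The share of all genes under that unadjusted cut is not given here, so the 18 have no background beside them. In interstitial macrophage-like cells all 6 were tested among 7358 genes, and 1 of the 30 member tests passed, the interaction for Fcgrt. The share of all genes called there was 1.21% for genotype in normal lung, 0.149% for genotype in tumor-bearing lung, 1.02% for tumor in WT lung, 0.0136% for tumor in LAIR1KO lung and 1.29% for the interaction, the tumor effect in LAIR1KO minus that in WT.

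Fcgr1 gave no call between groups of interstitial macrophage-like cells. It had 79.3, 90.4 and 112 CPM in LAIR1KO tumor, 45.4, 87.5 and 98.4 CPM in LAIR1KO normal, 95.7, 95.8 and 78.0 CPM in WT tumor and 82.2, 88.3 and 92.2 CPM in WT normal. The groups overlapped, and the lowest value came from LAIR1KO normal replicate 1, which has only 19 of these cells. Log2 fold changes were −0.01 for genotype in normal lung, 0.12 for genotype in tumor-bearing lung, 0.02 for tumor in WT and 0.16 for tumor in LAIR1KO.

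Fcgr3 had 305, 356 and 296 CPM in LAIR1KO tumor, 344, 323 and 239 CPM in LAIR1KO normal, 270, 268 and 243 CPM in WT tumor and 341, 444 and 353 CPM in WT normal. All 3 WT tumor replicates lay below all 3 WT normal ones, and below all 3 LAIR1KO tumor ones. The log2 fold change for tumor in WT was −0.55 ± 0.14 (SE), with an adjusted p of 0.0673 by edgeR, which missed the threshold. It was 0.09 for tumor in LAIR1KO, 0.30 for genotype in tumor-bearing lung (adjusted p = 0.665) and −0.34 for genotype in normal lung (adjusted p = 0.397). The interaction was 0.64 ± 0.21 (edgeR adjusted p = 0.156). With DESeq2 in place of edgeR the tumor in WT difference passed, at −0.55 with an adjusted p of 0.0357. It passed in 3 of 8 alternative settings, DESeq2 among them, and in 0 of 6 fits with 1 replicate left out. The WT normal animals in this contrast were male.

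Fcgr4, low throughout this class, had 20.8, 20.6 and 22.8 CPM in LAIR1KO tumor, 58.4, 17.9 and 11.6 CPM in LAIR1KO normal, 23.6, 14.5 and 20.3 CPM in WT tumor and 4.44, 5.20 and 5.76 CPM in WT normal. All 3 WT normal replicates lay below the other 9, on 4, 2 and 3 UMIs. The log2 fold change was 2.05 ± 0.56 for genotype in normal lung (edgeR adjusted p = 0.0867) and 1.91 ± 0.50 for tumor in WT (adjusted p = 0.0676), neither past the threshold. It was 0.17 for genotype in tumor-bearing lung and 0.03 for tumor in LAIR1KO, and the interaction was −1.88 ± 0.66 (edgeR adjusted p = 0.208). Both larger differences passed without the filter on low counts (edgeR adjusted p of 0.0134 and 0.00502). They also passed with hashtag-negative cells assigned to their leading hashtag (0.0124 and 0.0184). That hashtag needed at least 10 UMIs and 60% of the hashtag UMIs of the cell, and hashtag doublets stayed out. Of 7 alternative settings in all, 2 passed for genotype in normal lung and 4 for tumor in WT. With 1 replicate left out, 0 of 6 fits passed for either contrast. The 9 WT normal UMIs came from the male animals. The 10 neutrophil markers, for a class rich in Fcgr4, summed to 791 to 1084 CPM in LAIR1KO tumor, 1168 to 2077 in LAIR1KO normal, 562 to 606 in WT tumor and 542 to 749 in WT normal, against at least 110600 CPM in neutrophil-like cells. The 9 non-classical monocyte markers summed to 601 to 713, 681 to 877, 694 to 852 and 468 to 763 CPM in the same order of groups, and the part of either in the Fcgr4 values was not tested.

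Fcer1g and Fcgr2b gave no call in these cells. Fcer1g had 1776, 1630 and 1754 CPM in LAIR1KO tumor, 1745, 1454 and 1619 CPM in LAIR1KO normal, 1534, 1571 and 1516 CPM in WT tumor and 1455, 1588 and 1550 CPM in WT normal, and its log2 fold changes ran from −0.00 to 0.18. All 3 LAIR1KO tumor replicates and 2 of the 3 LAIR1KO normal ones lay above every WT replicate. Fcgr2b had 438, 434 and 414 CPM in LAIR1KO tumor, 422, 291 and 330 CPM in LAIR1KO normal, 354, 415 and 273 CPM in WT tumor and 459, 514 and 290 CPM in WT normal. All 4 groups overlapped, LAIR1KO tumor and WT tumor by their nearest replicates alone. Its fold changes were −0.31, 0.33, −0.29 and 0.34 for genotype in normal lung, for genotype in tumor-bearing lung, for tumor in WT and for tumor in LAIR1KO, while the interaction was 0.64 ± 0.25 (edgeR adjusted p = 0.289).

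**Figure D3:**
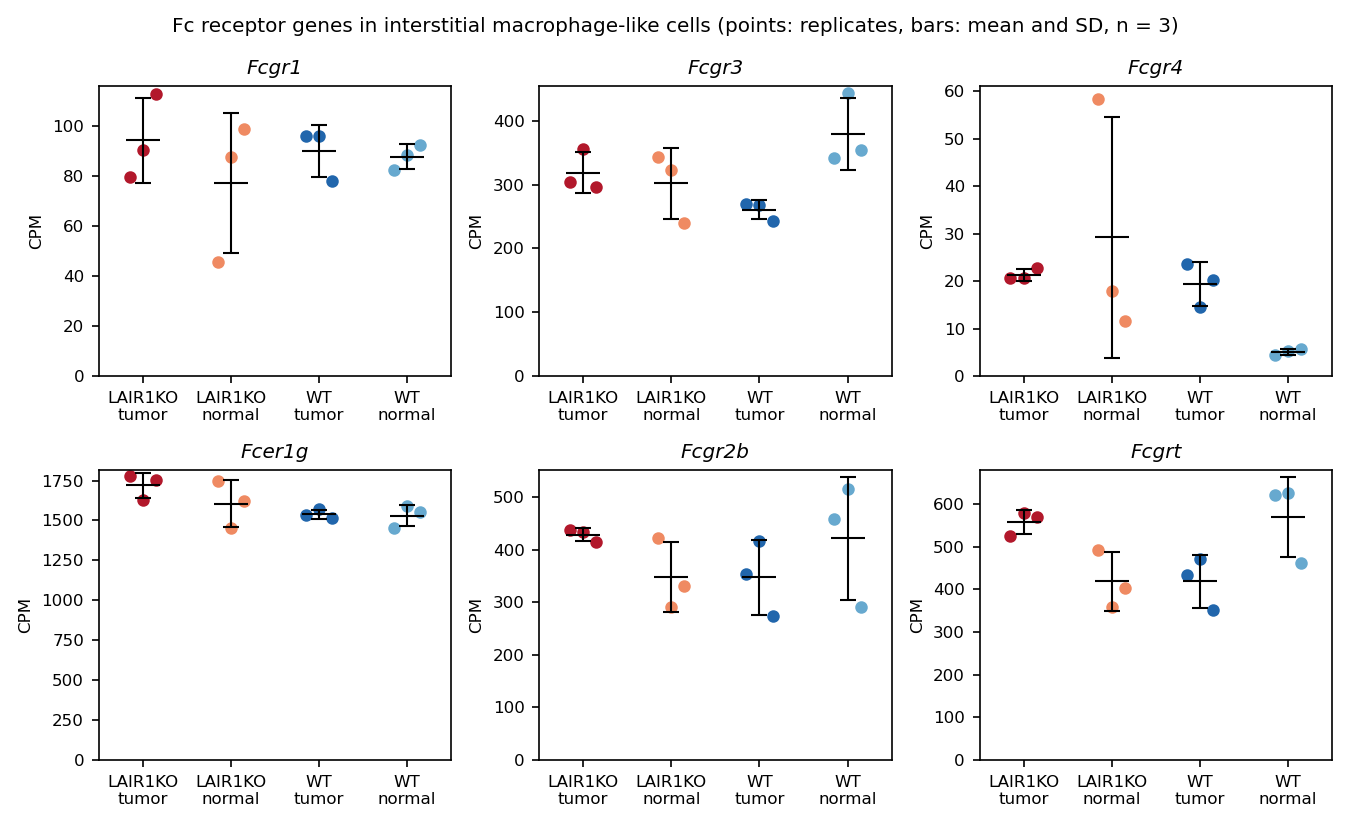
Level (CPM, each vertical axis starting at 0) of the 6 Fc receptor genes in interstitial macrophage-like cells by group, with 1 point per hashtag replicate and bars for the mean and SD (n = 3 per group). Fcgr4 lies between 4.44 and 5.76 CPM in WT normal and higher in the other 9 replicates, and Fcgrt is high in LAIR1KO tumor and WT normal.

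Of the 6 genes, Fcgrt was the one whose difference with tumor itself differed between genotypes by the test in interstitial macrophage-like cells. It had 526, 580 and 569 CPM in LAIR1KO tumor, 493, 359 and 403 CPM in LAIR1KO normal, 434, 471 and 351 CPM in WT tumor and 622, 626 and 461 CPM in WT normal. Every LAIR1KO tumor replicate lay above every LAIR1KO normal and every WT tumor replicate, while WT normal overlapped WT tumor through its replicate 3. The log2 fold change was 0.44 ± 0.14 for tumor in LAIR1KO (edgeR adjusted p = 0.420) and −0.46 ± 0.14 for tumor in WT (adjusted p = 0.124). The difference between them, the interaction, was 0.91 ± 0.20 with an edgeR adjusted p of 0.0252. Genotype gave 0.44 ± 0.14 in tumor-bearing lung (adjusted p = 0.360) and −0.47 ± 0.15 in normal lung (adjusted p = 0.1505).

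The interaction stood near the threshold. Leaving out 1 replicate at a time kept it positive, at 0.78 to 1.02, with an adjusted p between 0.00680 and 0.129. It passed without LAIR1KO tumor replicate 1, LAIR1KO normal replicate 1, WT tumor replicate 2 or WT normal replicate 3, and missed without any one of the other 8. It also missed, at 0.80 with an adjusted p of 0.0803, when the 6 genes were allowed among the clustering genes. The WT normal animals that enter it were male.

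The class holds 2 clusters that differ in these receptors. Cluster 1 (889 cells) was led by the chemokine genes Ccl4 and Ccl3 and by Cd83, and cluster 5 (619 cells) by Retnla, F13a1, Ccl24 and Folr2. Median Fcgrt was 724 CPM (546 to 886) in cluster 5 and 271 CPM (187 to 383) in cluster 1, and median Fcgr2b was 574 CPM (411 to 666) and 248 CPM (167 to 392). Median Fcgr3 was 366 CPM (284 to 485) in cluster 5 and 240 CPM (190 to 357) in cluster 1. All 3 genes were higher in cluster 5 in 11 of 11 replicates with at least 10 cells in each cluster. Fcgr1, at 87.9 and 89.7 CPM, and Fcer1g, at 1564 and 1536 CPM, were higher in cluster 5 in 4 and 6 of 11 replicates, and Fcgr4, at 7.06 and 20.7 CPM, in 3 of 11. Since clusters are drawn from the same cells, these are descriptions without a test.

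The share of cluster 5 moved with Fcgrt. It was 45.2% of interstitial macrophage-like cells in LAIR1KO tumor (43.9, 40.7 and 47.3% by replicate), 28.9% in LAIR1KO normal (36.8, 28.2 and 28.1%), 34.1% in WT tumor (34.1, 44.3 and 25.7%) and 55.7% in WT normal (55.0, 68.5 and 48.1%). Within cluster 1 the Fcgrt interaction was −0.07 (edgeR adjusted p = 0.979), and within cluster 5 it was 0.56 ± 0.21 (unadjusted p = 0.0142, edgeR adjusted p = 0.452). In cluster 5 Fcgrt had 886, 840 and 820 CPM in LAIR1KO tumor, 788, 546 and 719 CPM in LAIR1KO normal, 724, 708 and 658 CPM in WT tumor and 817, 829 and 685 CPM in WT normal, the LAIR1KO normal value of 788 resting on 7 cells. Every LAIR1KO tumor replicate was above every LAIR1KO normal and WT tumor replicate there, and no such order held in cluster 1. In cluster 1 the values were 187, 366 and 302 CPM in LAIR1KO tumor, 383, 280 and 273 CPM in LAIR1KO normal, 269, 258 and 232 CPM in WT tumor and 287, 195 and 233 CPM in WT normal. None of the 6 genes passed in cluster 1 alone in any contrast with edgeR, nor did any of the 5 tested in cluster 5, where Fcgr4 failed the filter on low counts. The 6 classical monocyte markers, among them F13a1 of cluster 5, summed to 1149 to 1328 CPM in all interstitial macrophage-like cells of LAIR1KO tumor, 680 to 1064 in LAIR1KO normal, 796 to 1168 in WT tumor and 1243 to 1764 in WT normal. They thus moved with Fcgrt, and their part in it was not tested.

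**Figure D4:**
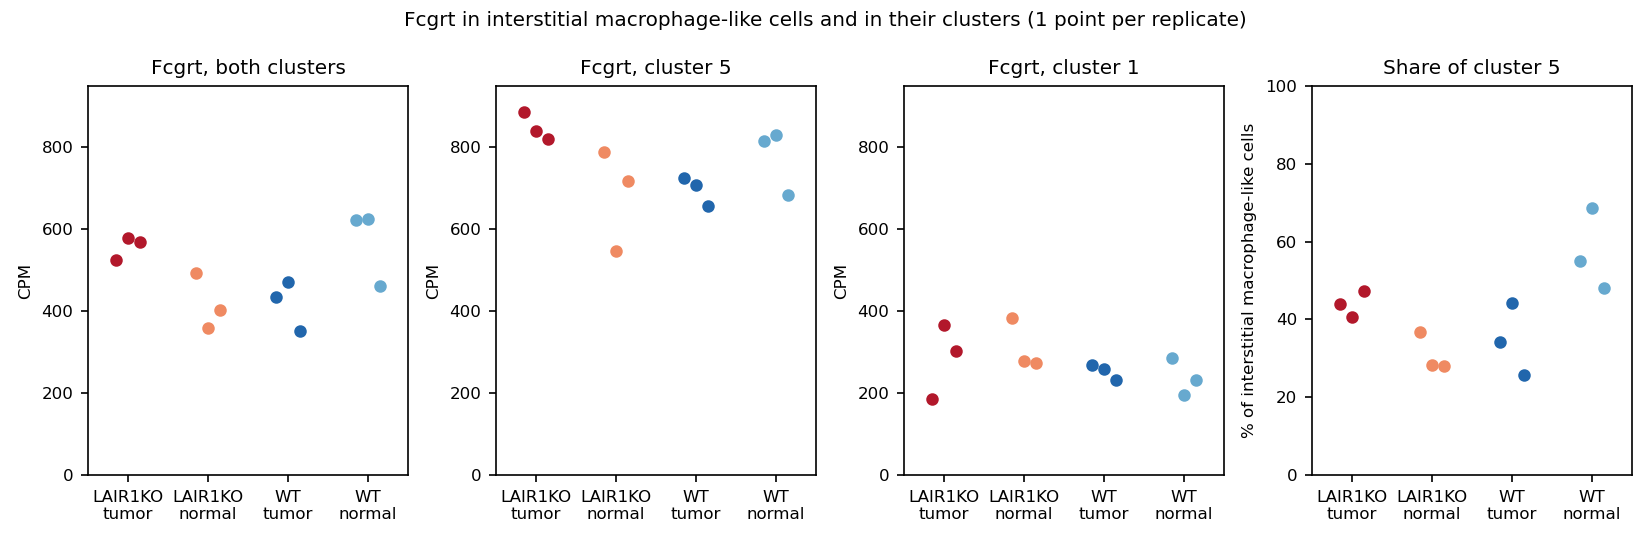
Fcgrt (CPM) in all interstitial macrophage-like cells, in cluster 5 and in cluster 1, and the share of cluster 5 among these cells (percent), with 1 point per replicate by group; cluster panels leave no replicate out for low cell number. Fcgrt in both clusters together and the share of cluster 5 are highest in WT normal and LAIR1KO tumor, while cluster 5 lies above cluster 1 throughout.

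In neutrophil-like cells, with 3348 genes tested, Fcgr3, Fcgr4 and Fcer1g passed the filter on low counts and none of their 15 tests passed the threshold, 1 having an unadjusted p under 0.05. The share of all genes called was 0.568% for genotype in normal lung, 0.329% for genotype in tumor-bearing lung, 2.06% for tumor in WT, 0.358% for tumor in LAIR1KO and 0.239% for the interaction. Fcgr3 had 352, 412 and 331 CPM in LAIR1KO tumor, 173, 309 and 345 CPM in LAIR1KO normal, 313, 257 and 221 CPM in WT tumor and 306, 279 and 247 CPM in WT normal. The 3 LAIR1KO tumor replicates stood above all WT replicates, and the log2 fold change for genotype in tumor-bearing lung was 0.49 ± 0.18 (edgeR adjusted p = 0.252).

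Fcgr4 had 172, 184 and 121 CPM in LAIR1KO tumor, 146, 129 and 119 CPM in LAIR1KO normal, 146, 149 and 190 CPM in WT tumor and 170, 130 and 149 CPM in WT normal, with log2 fold changes from −0.19 to 0.39. Fcer1g had 2092, 1769 and 1688 CPM in LAIR1KO tumor, 1465, 1652 and 1805 CPM in LAIR1KO normal, 1686, 1553 and 1844 CPM in WT tumor and 1715, 1724 and 1915 CPM in WT normal, with fold changes from −0.08 to 0.22. The groups overlapped for both genes.

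In alveolar macrophage-like cells, present in tumor-bearing lungs of both genotypes in sufficient number, 5 of the 6 genes were tested for genotype and none passed, where 0.0248% of 4028 genes did. The log2 fold changes were 0.12 for Fcer1g, −0.28 for Fcgr2b, −0.20 for Fcgr3, 0.35 for Fcgr4 and 0.01 for Fcgrt. In monocyte-like cells 4 genes were tested for genotype in tumor-bearing lung, with 0% of 1085 genes called, at −0.32 for Fcgr3, −0.14 for Fcgr4, 0.16 for Fcer1g and 0.22 for Fcgr2b. In dendritic-like cells 0.0415% of 2412 genes were called and Fcgr2b was at −0.32, Fcer1g at 0.15 and Fcgrt at −0.17. In natural killer-like cells 0% of 946 genes were called and Fcer1g was at 0.08. In B-like cells 0.0928% of 1078 genes were called for genotype in tumor-bearing lung and 0.0928% for tumor in WT. Fcgr2b was there at −0.35 and −0.12, and Fcer1g at 1.25 and 0.84. The smallest adjusted p of the edgeR tests in these classes was 0.864.

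Fcgrt gave no call in the stromal classes. In fibroblast-like cells it had 133 ± 12.7 CPM in LAIR1KO tumor, 119 ± 12.0 CPM in LAIR1KO normal, 123 ± 5.17 CPM in WT tumor and 123 ± 12.7 CPM in WT normal (SD, n = 3 each). Its log2 fold changes ran from −0.04 to 0.14, with an interaction of 0.16 ± 0.20 (edgeR adjusted p = 0.962). The shares called among 8121 genes were 0.246% for genotype in normal lung, 0% for genotype in tumor-bearing lung, 0.234% for tumor in WT, 0.123% for tumor in LAIR1KO and 0.0369% for the interaction. Fcer1g, the other gene tested there, also gave no call. In endothelial-like cells, where Fcgrt alone was tested, it had 41.4 ± 7.13, 50.8 ± 2.89, 44.2 ± 9.41 and 45.5 ± 17.7 CPM in the same order of groups, with an interaction of −0.23 ± 0.42 (edgeR adjusted p = 0.988). There 0.691%, 0%, 0.115%, 1.65% and 0.0432% of 6949 genes were called for genotype in normal lung, for genotype in tumor-bearing lung, for tumor in WT, for tumor in LAIR1KO and for the interaction. Whether the Fcgrt interaction differs between these classes and interstitial macrophage-like cells was not tested.

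The second call was Fcer1g in alveolar type 2-like cells, epithelial cells that are not known to use it. It had 1, 1 and 1 UMI in LAIR1KO tumor (4.76, 8.22 and 1.66 CPM) and 29, 14 and 45 UMIs in WT tumor (84.5, 19.4 and 60.5 CPM). LAIR1KO normal had 2 and 8 UMIs in its 2 replicates with at least 10 cells, and WT normal had 13, 10 and 34. LAIR1KO normal replicate 1, left out with 8 cells, held 38 UMIs. The groups of tumor-bearing lung did not overlap, and the edgeR log2 fold change was −3.82 ± 0.80 (adjusted p = 0.0491), where 0.142% of 7751 genes were called. From 3 and 88 UMIs the ratio per UMI counted was 0.0660, with an exact 95% counting interval of 0.0134 to 0.199. The interval covers counting error only and leaves out the spread between cells and between replicates.

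Interstitial macrophage markers, summed over the 10 of the list, stood at 453 to 518 CPM in the alveolar type 2-like cells of LAIR1KO tumor, 555 to 643 in LAIR1KO normal, 703 to 1454 in WT tumor and 412 to 498 in WT normal. Without the cells that Scrublet marked as doublets the Fcer1g fold change was −1.15 (edgeR adjusted p = 0.952), which ended the call. Leaving out 1 replicate at a time gave log2 fold changes of −4.30 to −2.97 and an adjusted p of 0.000800 to 0.5003, under the threshold only without WT tumor replicate 2. The value of −2.97 came without LAIR1KO tumor replicate 3. The other contrasts in this class gave no call for Fcer1g or Fcgrt, with 1.25% of genes called for genotype in normal lung, 0.529% for tumor in WT, 0.877% for tumor in LAIR1KO and 0.632% for the interaction.

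The genes around the receptors were followed as 7 lists of 74 genes, for immunoglobulin ligands, other immunoglobulin receptors, the FcRn partner, adaptors and receptors paired with the common gamma chain, activating signalling, inhibitory signalling and regulators of Fc receptors. In interstitial macrophage-like cells 48 of them were tested. For genotype in normal lung 2 were higher in LAIR1KO and 0 lower, beside 1.21% of all 7358 genes called. For tumor in WT 1 was higher and 0 lower, beside 1.02% of all genes. For the interaction 0 were positive and 1 negative, beside 1.29%. For genotype in tumor-bearing lung and tumor in LAIR1KO 0 passed, beside 0.149% and 0.0136%. The median log2 fold change of the 48 was 0.14 for genotype in normal lung and 0.08 for tumor in WT, beside −0.01 and −0.00 over all genes. It was −0.04 for genotype in tumor-bearing lung, −0.11 for tumor in LAIR1KO and −0.18 for the interaction, beside 0.0027, 0.0028 and 0.0123 over all genes.

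Prkcd, a kinase downstream of ITAM receptors, accounted for 3 of these 4 calls. It averaged 215 ± 11.5 CPM in LAIR1KO tumor, 241 ± 25.4 CPM in LAIR1KO normal, 258 ± 7.88 CPM in WT tumor and 154 ± 10.7 CPM in WT normal (SD, n = 3 each). WT normal lay below the other groups, with log2 fold changes of 0.67 ± 0.14 for genotype in normal lung (edgeR adjusted p = 0.0169) and 0.72 ± 0.13 for tumor in WT (adjusted p = 0.00704). Clec4e, for Mincle, a C-type lectin that signals through the common gamma chain, averaged 135 ± 56.6 CPM in LAIR1KO normal and 44.9 ± 2.33 CPM in WT normal, a log2 fold change of 1.74 ± 0.35 (edgeR adjusted p = 0.0168). Both comparisons set female LAIR1KO or tumor-bearing animals against male WT normal ones.

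In neutrophil-like cells 37 of the 74 were tested. For genotype in normal lung and genotype in tumor-bearing lung 1 passed each, beside 0.568% and 0.329% of all 3348 genes called. For tumor in LAIR1KO 1 passed, beside 0.358% of all genes. Pira2, an activating receptor paired with the common gamma chain and a member of a large family of near-identical copies among which reads may be split, was higher in LAIR1KO in both tumor-bearing lung (659 ± 78.1 CPM in LAIR1KO, 195 ± 25.8 CPM in WT, log2 fold change 1.80 ± 0.16, edgeR adjusted p = 4.45e-08) and normal lung (663 ± 83.6 and 209 ± 27.7 CPM, 1.71 ± 0.15, adjusted p = 1.54e-08). Pira2 belongs to the paired Ig-like receptor genes near Lair1, the deleted gene. Whether a change of that region itself, apart from the loss of LAIR-1, enters the difference was not tested. Vav3, an exchange factor of the signalling path, was lower with tumor in LAIR1KO, at 17.9 ± 4.76 CPM in tumor and 56.9 ± 2.52 CPM in normal (log2 fold change −1.54 ± 0.35, edgeR adjusted p = 0.0418). No listed gene passed for tumor in WT or the interaction, where 2.06% and 0.239% of all genes were called. In alveolar type 2-like cells Gbp2, an interferon-induced GTPase, was called for genotype in normal lung, beside 1.25% of all 7751 genes. Its log2 fold change was 4.63 ± 1.09 (edgeR adjusted p = 0.0284). It rested on 14 UMIs in LAIR1KO and 2 in WT, a ratio per UMI counted of 32.8. The exact 95% counting interval was 7.53 to 297. LAIR1KO normal had only 2 replicates with at least 10 cells here, holding 9 and 5 of these UMIs. Sex differed too, since the WT normal replicates were the male ones, and its part was not tested.

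Likeness between genes was measured across 12 cell classes as the Pearson correlation of mean log2(CPM + 1), among 10746 genes. The genes most like each receptor gene were Trem2 (0.98), Ifi207 and Ms4a6d for Fcgr1, Evi2 (0.96), Osm and Nlrp3 for Fcgr3, and Klra2 (0.99), I830077J02Rik and Sirpb1c for Fcgr4. For Fcer1g they were Tyrobp (0.99), the gene of the partner adaptor DAP12, then Plek and Ccl3. For Fcgr2b they were Ly86 (0.92), Ctss and Ccl9, and for Fcgrt they were Glb1 (0.97), a lysosomal galactosidase, Sdf2l1 and Pld2. Between the receptor genes the correlation was 0.94 for Fcgr3 with Fcer1g, 0.86 for Fcgr3 with Fcgr4 and 0.04 for Fcgrt with Fcer1g. The 12 points are classes from the same libraries and differ in depth and cell number, so these values are descriptions.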

How the data were processed

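Single cells of lung were profiled in 4 libraries, 1 per group. The deposited counts are UMIs per gene and barcode, which the authors obtained on mm10. Per the submitters' processing notes the tools were Cell Ranger 4.0.0, STAR, R 4.0.0 and Seurat 3.2.0. Intronic reads and the calling of cells are not described in the sources used here. Cells with at least 300 genes and at most 10% mitochondrial UMIs were assigned to 1 of 3 hashtags per library with HTODemux (Seurat 5.3.0, R 4.3.3, quantile 0.99), and hashtag doublets and negatives were left out. Scrublet marked 339 cells (2.15%), which were kept in the main results. Clusters came from scanpy 1.11.5 and leidenalg 0.10.2 (2000 variable genes without the 6 receptor genes, 30 components, 15 neighbours, resolution 1). Clusters were named from marker lists, and 798 kept cells stayed unnamed.

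For each replicate with 10 or more cells of a class, the UMIs of those cells were added up, and these sums entered edgeR 4.0.16 (quasi-likelihood test, TMM, filterByExpr, all groups in the fit), with Benjamini-Hochberg adjustment over all genes tested. DESeq2 1.42.0 was an alternative. Ratios needed at least 20 UMIs and were compared by exact permutation over replicates, adjusted over 15 comparisons. The edgeR step was tested on simulated data. Named genes are the 6 receptor genes, Lair1, listed genes past the threshold (at most 3 up and 3 down per list, class and contrast) and the 3 genes most like each receptor gene. The receptor genes and the lists were chosen with earlier results of these data known.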

Additional observations from a re-analysis of the deposited data

Results flagged for a closer look

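The Fcgrt interaction in interstitial macrophage-like cells was singled out because the tumor effect differed between the genotypes by a test of the difference itself. The tumor-bearing minus normal log2 difference was 0.44 in LAIR1KO and −0.46 in WT, and their difference was 0.91 ± 0.20 (SE, edgeR adjusted p = 0.0252, n = 3 replicates per group). The WT normal replicates that enter it were the male ones, and the share of cluster 5, where Fcgrt is higher, was 45.2% in LAIR1KO tumor, 28.9% in LAIR1KO normal, 34.1% in WT tumor and 55.7% in WT normal. The part of sex was not tested, and within clusters the interaction was −0.07 (cluster 1) and 0.56 (cluster 5), neither past the threshold.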

How the results depend on the processing

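No paired analysis was possible because the labels give no replicate numbers that tie animals across groups, and hashtag numbers only name the replicates. The class with the highest median of each of the 6 genes was the same under every alternative run, and 172 of 175 median levels moved by less than the spread between replicates. Alternatives were run for 15 of the 18 log2 differences with an unadjusted p under 0.05. Of their 249 alternative values 213 kept direction and side of the threshold, 12 newly passed, 20 no longer passed and 4 changed sign. Those 4 were within cluster 1 alone: Fcgrt at 0.28 for genotype in normal lung, −0.091 for tumor in LAIR1KO and −0.075 for the interaction, and Fcgr2b at −0.015 for the interaction. Differences outside this set changed sign too, among them Fcgr2b within cluster 1, at 0.16 for genotype in normal lung and −0.070 for tumor in LAIR1KO, and Fcgr1 within cluster 5, at −0.13 for genotype in tumor-bearing lung. Of the ratio differences 49 of 54 kept their label, and the difference for genotype in interstitial macrophage-like cells ran from −0.10 to 0.084 with 1 replicate left out.

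Counts of the 6 genes past the threshold in interstitial macrophage-like cells were as follows. For genotype in normal lung, 0 in the reported fit, it was 2 with no filter on low counts, 1 with rescued hashtag cells (hashtag-negative cells given their leading hashtag) and 0 to 1 with 1 replicate left out. For tumor in WT, 0 in the reported fit, it was 1 with DESeq2, 1 with a minimum of 20 cells, 2 with no filter, 1 with only the 2 groups fitted, 2 with rescued cells and 0 to 1 with 1 replicate left out. For the interaction, 1 in the reported fit, it was 0 with the receptor genes among the clustering genes, 0 within cluster 1, 0 within cluster 5 and 0 to 1 with 1 replicate left out. In alveolar type 2-like cells the 1 gene for genotype in tumor-bearing lung became 0 with DESeq2, a minimum of 20 cells, only the 2 groups fitted, rescued cells, resolution 0.5 and without Scrublet doublets, and 0 to 1 with 1 replicate left out. The interaction there, 0 in the reported fit, was 1 with no filter and 1 with rescued cells.

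Counts over all genes in interstitial macrophage-like cells moved more. Genotype in normal lung (89 genes) gave 38 with the receptor genes among the clustering genes, 254 with no filter, 55 with only the 2 groups and 27 to 102 with 1 replicate left out. Genotype in tumor-bearing lung (11) gave 101 with no filter, 24 with only the 2 groups, 27 with rescued cells, 1 at resolution 0.5, 1 without Scrublet doublets and 3 to 7 with 1 replicate left out. Tumor in WT (75) gave 29 with the receptor genes among the clustering genes, 258 with no filter, 136 with rescued cells and 16 to 99 with 1 replicate left out. Tumor in LAIR1KO (1) gave 13 with DESeq2, 3 with the receptor genes among the clustering genes, 0 with a minimum of 20 cells, 104 with no filter, 11 with only the 2 groups, 6 with rescued cells, 2 at resolution 0.5, 3 without Scrublet doublets and 0 to 6 with 1 replicate left out. The interaction (95) gave 36, 261 and 161 with the receptor genes among the clustering genes, no filter and rescued cells, and 30 to 124 with 1 replicate left out.

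In neutrophil-like cells genotype in normal lung (19) gave 29 with no filter, 30 with only the 2 groups and 30 with rescued cells. Genotype in tumor-bearing lung (11) gave 30 with no filter and 2 to 19 with 1 replicate left out. Tumor in WT (69) gave 40 with DESeq2 and 27 to 40 with 1 replicate left out. Tumor in LAIR1KO (12) gave 19 with no filter, 6 with only the 2 groups and 2 to 10 with 1 replicate left out. The interaction (8) gave 27 with no filter, 39 with rescued cells, 23 at resolution 0.5, 24 without Scrublet doublets and 3 to 20 with 1 replicate left out. The cause of these shifts was not tested. Fitting the clusters apart was chosen after seeing the data. Depth limits Fcgr4 in interstitial macrophage-like cells and Fcgr2b in neutrophil-like cells, which rest on 9 UMIs in WT normal and 3 in WT tumor.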

Other observations

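Cells without a hashtag call were left out of the reported fits. Those with a clear leading hashtag entered only the alternative that assigns them to it. Of all cells without a call, 791 fell into the interstitial macrophage-like class, 30.04% of it. Their Fcgrt level, 1 value per library with no replicates, was 554 CPM in LAIR1KO tumor, 418 CPM in LAIR1KO normal, 361 CPM in WT tumor and 457 CPM in WT normal. The cells with a single hashtag had 556, 394, 411 and 577 CPM in the same order of groups. Over all groups the cells without a call had 105 CPM of Fcgr1, 313 of Fcgr3, 18.0 of Fcgr4, 1598 of Fcer1g and 355 of Fcgr2b, against 91.2, 302, 17.5, 1608 and 384 CPM in the cells with a single hashtag. In alveolar type 2-like cells without a call Fcer1g was at 22.8 CPM in LAIR1KO tumor and 11.8 CPM in WT tumor, the opposite order to that of the cells with a single hashtag, at 3.21 and 48.6 CPM.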
